A study of Homo sapiens with 10 samples.

Results

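Heat-shocked cells with YTHDC1 knocked down were compared with unheated control cells, both of them U2OS, an established human osteosarcoma line. The comparison took in every gene and 4 of the 10 samples of the series: 2 RNA-seq libraries from heat-shocked YTHDC1 knockdown cells and 2 from unheated cells that had received the control reagent. A further group, 2 libraries from heat-shocked control cells (the heated controls), was fitted together with them, and its values stand beside the net ones where they show which step a gene changed in. The remaining 4 samples, from methylated RNA immunoprecipitation, were not analysed here, and m6A, the methylated adenosine found in messenger RNA, is therefore not measured. The sample titles name the control cells shCtrl and the knockdown cells shYTHDC1, and the genotype labels are WT and shYTHDC1. The sample descriptions and the design text speak of siRNA, so the word knockdown is used for both kinds of reagent. All groups shared the line, the DMEM medium with serum, the TRIzol extraction, the VAHTS Universal V8 library kit and the DNBSEQ-T7 sequencer. The temperature and length of the heat shock, any recovery time and the time since knockdown are not stated in the sources used here. No group was knocked down and left unheated, so heat and knockdown cannot be told apart in the net comparison, and what follows is the combined state of the cells.

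Heat and other stresses that unfold proteins release the transcription factor HSF1 from chaperones. HSF1 then forms trimers, binds heat shock elements (inverted repeats of a short GAA unit) in front of chaperone genes and drives their transcription. YTHDC1 is the nuclear member of the YTH family of proteins that bind m6A, and it is known for roles in splicing, in the export of messenger RNA and in the fate of nuclear RNAs. The design text names non-homologous end joining, the pathway that rejoins broken DNA ends without a template, as the set of genes the study was about.

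YTHDC1 (ENSG00000083896, GRCh38 chromosome 4, 68310387 to 68350090), the targeted gene, stood at 213 and 225 CPM in the unheated controls and at 121 and 118 CPM in the heat-shocked knockdown. CPM are read counts relative to the library size as scaled by TMM, edgeR's trimmed mean of M-values. Both knockdown libraries were below both unheated libraries, and the net log2 fold change was -0.87 ± 0.05 (standard error, SE; n = 2 per group; edgeR adjusted p = 1.42e-13). The heated controls were at 268 and 258 CPM, the highest of the 6 libraries, so the fall against heated cells was larger (log2 fold change -1.14) than the fall against unheated cells. HSPA6 (ENSG00000173110, chromosome 1, 161524540 to 161526894), a member of the HSP70 chaperone family that is made almost only under stress, stood at 4.79 and 4.69 CPM in the unheated controls and at 1559 and 1448 CPM in the heat-shocked knockdown. The rise was 316-fold (log2 fold change 8.31 ± 0.08, adjusted p = 1.44e-28), and the heated controls, at 1460.2 and 1536 CPM, lay in the same range as the knockdown. HSF1 itself went from 155 and 150.1 CPM to 175 and 181 CPM, with both knockdown libraries above both unheated ones (log2 fold change 0.22 ± 0.05, adjusted p = 0.000232). As TPM, reads divided by gene length and scaled to the library, HSF1 was lowest in the heated controls, at 97.6 and 98.1. Unheated cells had 106 and 104 TPM and the knockdown 119 and 121 TPM.

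The 6 libraries held between 13252370 and 15500743 counts, and mitochondrial genes took from 5.09% to 6.12% of them. Nothing in the labels says whether replicate libraries are from separate cultures, and the p-values thus rest on a spread between samples that may be technical. Markers of the line were present, with VIM (vimentin) between 1129 and 1681 CPM, SPARC (osteonectin) between 850.5 and 1337 CPM and COL1A1 (type I collagen) between 1322 and 1932 CPM. TWIST1, a mesenchymal transcription factor, had 0 reads in all 6 libraries, and COL1A2 had from 1 to 32 reads. A count of 0 allows up to 0.226 CPM before TMM scaling (3 counts in the smallest library, counting error only). TERT, the telomerase gene that U2OS cells keep low, had from 1 to 4 reads. Defining markers of blood cells were at or near 0, with CD3E and HBB at 0 reads in every library and PTPRC at 1 to 10 reads. HBA2 had 0 reads in both unheated libraries, 14 and 88 in the heated controls and 5 and 23 in the knockdown, and it is nearly identical to HBA1, so its reads are uncertain. These are bulk samples, in which fewer cells of a type and less RNA per cell cannot be told apart.

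Messenger RNA levels differed widely between the heat-shocked knockdown and the unheated controls. Of 17290 genes tested, 5372 (31.1%) were higher and 5384 (31.1%) lower at an adjusted p under 0.05, so that 62.2% passed in one direction or the other. A change of at least 2-fold was reached by 1634 higher genes (9.45%) and 1554 lower genes (8.99%). The median log2 fold change of all tested genes was -0.00. These shares are the background for every gene list below: a list of which about 31.1% rose and 31.1% fell moved as the tested genes did overall. Among the 11578 genes that averaged 5 CPM or more, the share that passed was higher, at 71.3%. A list of well-expressed genes can therefore exceed 62.2% without standing out. The same fit called 43.9% of the genes for heat in control cells and 54.5% for the knockdown among heated cells. Those comparisons share libraries with the net one, the first its unheated controls and the second its knockdown libraries, so they are not independent of it.

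**Figure D1:**
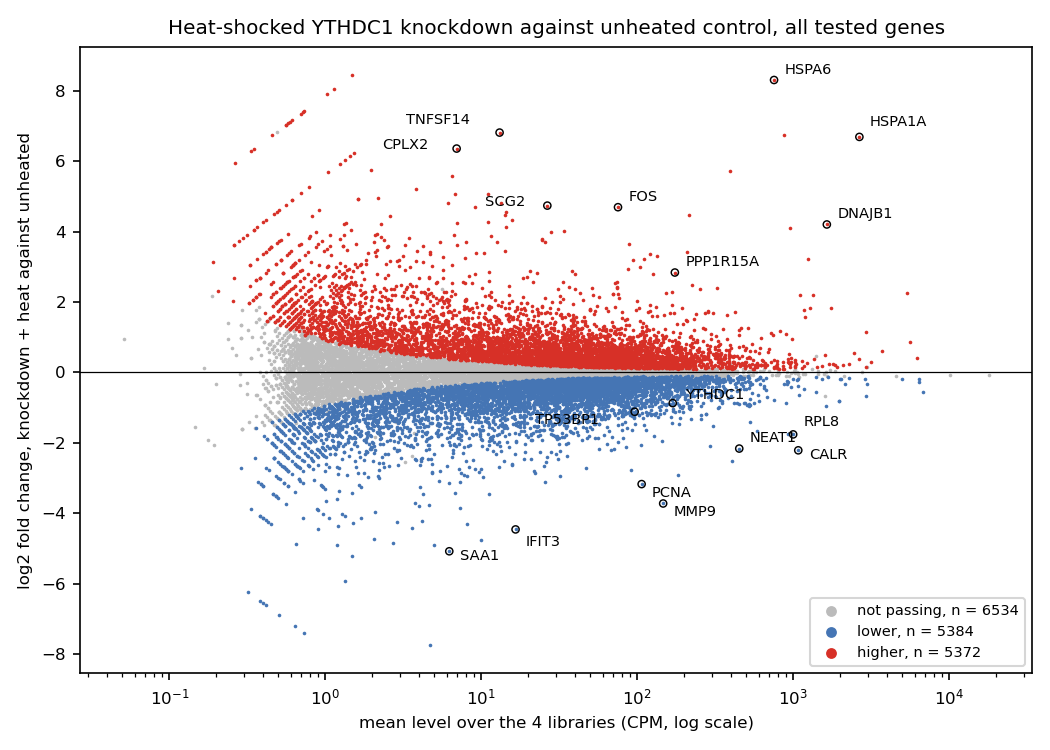
Net change of every tested gene. The x axis is the mean level over the 4 libraries compared (CPM, log scale) and the y axis the log2 fold change of heat-shocked YTHDC1 knockdown against unheated control; 5372 genes are marked as higher, 5384 as lower and 6534 as not passing, with HSPA6 at 8.31 the highest of the labelled genes and SAA1 at -5.08 the lowest.

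Of the protein-coding genes that averaged 5 CPM or more, the 15 with the largest rises held 6 heat shock genes, namely HSPA6, HSPA1B, HSPA1A, DNAJA4, ZFAND2A and DNAJB1, next to others. Of the others, TNFSF14 stands in the list of other HSF1 targets below. TNFSF14, a cytokine of the tumour necrosis factor family also known as LIGHT, went from 0.126 and 0.321 CPM to 27.4 and 24.6 CPM (log2 fold change 6.81 ± 0.23, adjusted p = 1.34e-17). It was at 17.1 and 17.1 CPM in the heated controls, between the groups compared, and the net value was 7.58 without unheated library 2. CPLX2, a complexin that regulates the release of secretory vesicles, stood at 0.189 and 0.128 CPM in the unheated controls and 14.4 and 13.2 CPM in the knockdown (a log2 fold change of 6.36 ± 0.32, adjusted p = 2.95e-14). Unlike the chaperones, CPLX2 was at 0.0769 and 0.502 CPM in the heated controls, which overlapped the unheated range. SCG2, secretogranin II, a protein of secretory granules, had the same shape, with 1.77 and 2.06 CPM unheated, 2.54 and 3.15 CPM in heated controls and 47.9 and 54.4 CPM in the knockdown (net log2 fold change 4.74 ± 0.14). SCN3B, a sodium channel subunit, and XIRP1, an actin-binding protein of striated muscle, rose by 4.28 and 4.55 on the log2 scale, and both were nearer to the unheated than to the knockdown level in heated controls. PNLDC1, a poly(A)-specific ribonuclease, and PLPPR5, a membrane protein related to lipid phosphatases, rose by 5.59 and 4.80, and both were lower in the knockdown than in heated controls (log2 fold change -0.89 and -0.58).

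The 15 largest falls included genes of inflammation and of the interferon response. SAA1, an acute-phase serum amyloid protein, stood at 11.7 and 12.6 CPM in the unheated controls and at 0.422 and 0.278 CPM in the knockdown (a log2 fold change of -5.08 ± 0.27, adjusted p = 4.51e-14), while the heated controls were at 12.4 and 15.2 CPM. MMP9, a secreted gelatinase, went from 268 and 278 CPM to 18.9 and 22.3 CPM, a 13.2-fold fall (log2 fold change -3.72 ± 0.07, adjusted p = 5.17e-23), and its heated controls were at 215 and 232 CPM. For both genes most of the distance lay between heated control and heated knockdown cells. SAA1 is close in sequence to its neighbour SAA2, so its count is uncertain. PCNA, the sliding clamp of DNA polymerases, was high in unheated cells at 190.4 and 194 CPM, intermediate in heated controls at 78.7 and 72.9 CPM and lowest in the knockdown at 22.02 and 20.6 CPM. Its net fall was 9.02-fold (log2 fold change -3.17 ± 0.06, adjusted p = 3.35e-22), and the 3 groups did not overlap. HPS6, a subunit of a complex that makes lysosome-related organelles, fell from 18.2 and 18.2 CPM to 2.18 and 2.44 CPM (log2 fold change -2.97 ± 0.16). For HPS6 the heated controls, at 2.77 and 3.23 CPM, were already close to the knockdown. The others of the 15 were IFI44, IFIT3, IFIT1, APOL3, CCDC71, LSP1, FXYD6, TRAF1, CXCL8, MAP2K6 and PDE4B, with log2 fold changes from -2.95 for PDE4B to -4.76 for IFI44. Without knockdown library 2, MAP2K6 was at -3.90 and APOL3 at -5.16, against -3.08 and -4.31 with it.

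**Figure D2:**
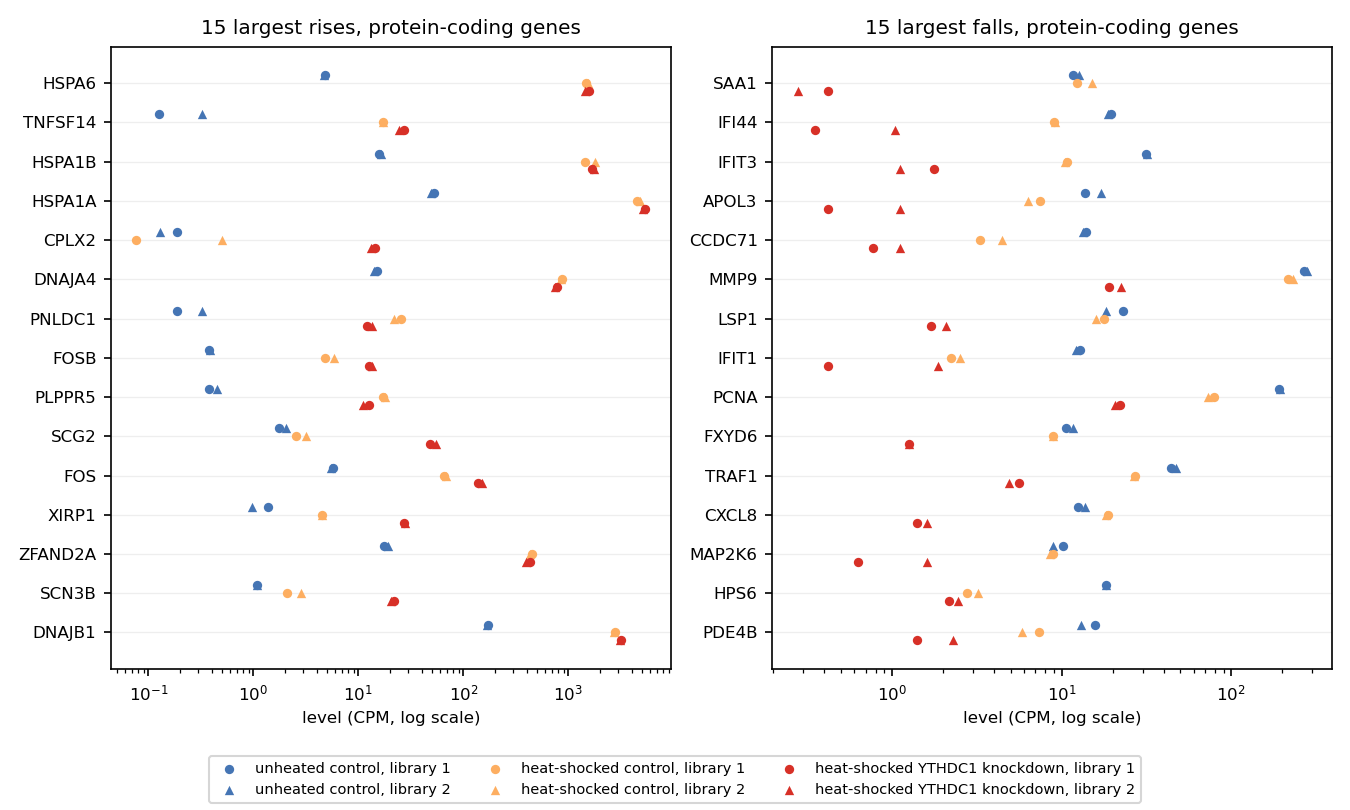
Levels of the 15 largest rises and 15 largest falls among protein-coding genes in each library (CPM, log x axis). Blue marks the unheated control, orange the heat-shocked control and red the heat-shocked YTHDC1 knockdown, with a circle for library 1 and a triangle for library 2; CPLX2 sits at 0.0769 and 0.502 CPM in heated controls and at 14.4 and 13.2 CPM in the knockdown, whereas HSPA6 sits at 1460.2 and 1536 CPM and at 1559 and 1448 CPM.

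Genes that do not code for protein were ranked apart. The largest rises were of HSPA7, a pseudogene close to HSPA6 in sequence, of HLA-V, MIR137HG and LINC00877, and of SNORD14E, with log2 fold changes from 3.62 (LINC00877) to 5.06 (HSPA7). SNORD14E, a small nucleolar RNA, lies inside HSPA8 on chromosome 11 (123058077 to 123058156 within 123057489 to 123062462), and reads of HSPA7 and HSPA6 can be exchanged, so the counts of both are uncertain. The largest fall of an abundant noncoding RNA was that of NEAT1, the scaffold RNA of nuclear paraspeckles, from 707 and 768 CPM to 162 and 168 CPM (log2 fold change -2.16 ± 0.05, adjusted p = 4.12e-21). Heated controls stood between, at 465 and 469 CPM, and no groups overlapped. LOXL1-AS1, LINC02474, ZNF407-AS1 and DUBR fell by 2.80, 2.28, 2.05 and 2.03 on the log2 scale. For LOXL1-AS1 and ZNF407-AS1, antisense RNAs, the strand setting of the counting is not stated in the sources, so their reads cannot be told from those of the partner gene.

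Chaperones, the proteins that hold or refold other proteins, were higher as a group. Of 49 chaperone and co-chaperone genes tested, 37 were higher, 7 lower and 5 did not pass, with a median log2 fold change of 0.98 against -0.00 for all tested genes. HSPA1A, the main inducible HSP70, went from 52.5 and 49.5 CPM to 5403 and 5127 CPM (103-fold, log2 fold change 6.69 ± 0.06, adjusted p = 1.44e-28). Its near-identical neighbour HSPA1B went from 15.6 and 16.6 CPM to 1682 and 1762 CPM (log2 fold change 6.74 ± 0.17), and the division of reads between these copies is uncertain. DNAJB1, the HSP40 partner of HSP70, went from 170.1 and 169 CPM to 3145 and 3092 CPM (log2 fold change 4.20 ± 0.05), and DNAJA4, another HSP40, from 14.9 and 14.01 CPM to 782 and 754 CPM (log2 fold change 5.73 ± 0.06). In all 4 genes the groups lay far apart and the libraries of a group close together. Per length, as TPM (reads divided by gene length and scaled to the library) computed from the counts and the deposited gene lengths, HSPA1A ranked 1921 among all genes in the unheated controls and 11 in the knockdown, and HSPA6 ranked 10375 and 40. The whole list took 1.88% and 1.91% of the counts of the unheated libraries and 5.68% and 5.47% of those of the knockdown libraries, and both heated controls were higher still, up to 6.05%.

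Members of the chaperone list that fell were few. HSPB3, a small heat shock protein of muscle, went from 2.901 and 2.57 CPM to 0.422 and 0.417 CPM (log2 fold change -2.68 ± 0.37), a low level in all groups. BAG5 and HSPA12A, a co-chaperone and a distant HSP70 relative, fell by 0.64 and 0.59 on the log2 scale. The following members were chosen after their values were seen, to show the range over chaperone classes. HSP90AA1, the inducible cytosolic HSP90, rose by 2.25, HSPH1, a nucleotide exchange factor for HSP70, by 3.21, BAG3, a co-chaperone of selective autophagy, by 4.11 and HSPD1, the mitochondrial HSP60, by 1.77 on the log2 scale. The ring chaperonin that folds actin and tubulin was mixed, with CCT5 higher by 0.39, CCT7 and CCT8 lower by 0.26 and 0.22, and CCT2 and CCT3 at 0.10 and 0.05 without passing. Against heated controls, a comparison with the same knockdown libraries, 8 of the 49 were higher and 29 lower, with a median log2 fold change of -0.16.

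Other targets of HSF1, listed together with the heat shock factors, behaved similarly in direction. Of 33 tested, 27 were higher, 3 lower and 3 did not pass, with a median log2 fold change of 1.18. Of the 33, 6 also stand in other lists here. The largest rise of the list was that of TNFSF14, given above. ZFAND2A, a zinc finger protein that associates with the proteasome, went from 17.7 and 18.95 CPM to 429 and 392 CPM (log2 fold change 4.48 ± 0.07, adjusted p = 7.68e-25). RGS2, which shortens signalling by G proteins, went from 3.28 and 3.34 CPM to 51.8 and 53.4 CPM (log2 fold change 3.99 ± 0.13). Neither gene's groups overlapped, and the heated controls of both, at 451 and 428 and 50.1 and 39.1 CPM, lay near the knockdown. The 3 lower members were MLLT11 (log2 fold change -0.41), TCEAL1 (-0.48) and INO80C (-0.64). The calls of TCEAL1 and INO80C were lost without unheated library 2 or without knockdown library 2, and that of TCEAL1 also without unheated library 1, with adjusted p up to 0.21 for TCEAL1 and 0.291 for INO80C over the alternatives, which left 1 lower member.

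Promoter sequences of 2 of these genes are shown for where they match the heat shock element, the sequence HSF1 is known to bind. They are the 250 bases before the first RefSeq start of HSPA6 (chr1:161524290-161524539, plus strand) and HSPA1A (chr6:31815293-31815542, plus strand), from RefSeq on GRCh38.p14, written 5′ to 3′. Capitals mark every match to GAANNTTC or TTCNNGAA, a pair of inverted units, searched on both strands, where overlapping matches run together.
HSPA6: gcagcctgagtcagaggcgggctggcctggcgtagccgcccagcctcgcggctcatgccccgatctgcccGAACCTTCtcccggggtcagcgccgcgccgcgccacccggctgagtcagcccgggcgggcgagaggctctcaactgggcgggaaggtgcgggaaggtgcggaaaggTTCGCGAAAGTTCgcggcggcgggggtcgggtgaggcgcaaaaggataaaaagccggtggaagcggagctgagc
HSPA1A: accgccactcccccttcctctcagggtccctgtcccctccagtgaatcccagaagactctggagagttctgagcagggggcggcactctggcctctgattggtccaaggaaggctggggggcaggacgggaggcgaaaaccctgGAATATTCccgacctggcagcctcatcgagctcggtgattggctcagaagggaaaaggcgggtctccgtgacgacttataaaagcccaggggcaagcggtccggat
HSPA6 held 2 marked stretches, from 180 to 62 bases before the start, and one of them is a run of 3 alternating units. HSPA1A held 1 marked stretch, from 106 to 99 bases before the start. This pair of units, chosen after a search for 3 units had been seen to find few genes, stood in 11.7% of 27305 promoters of the same length, in 13 of 43 chaperone promoters and in 6 of 13 promoters among the 15 largest rises. Those 6 were HSPA6, HSPA1B, HSPA1A, ZFAND2A, PLPPR5 and XIRP1. The heat shock genes DNAJA4 and DNAJB1, also among the largest rises, held no pair in this window. The 3-unit form, GAANNTTCNNGAA or TTCNNGAANNTTC, stood in 0.439% of all promoters, in 4 of 43 chaperone promoters and in 1 of 13 of the largest rises, HSPA6. Of the tested genes, 11844 had a promoter in the table and 8.76% of these held the pair, against 11.7% of 930 genes at least 2-fold higher and 8.20% of 976 genes at least 2-fold lower. A match is a string of letters in the sequence and not a measured binding site.

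Immediate early genes, which cells switch on within minutes of a stimulus and which include the AP-1 subunits, were the list in which every tested member passed. Of 34, 23 were higher and 11 lower, with a median log2 fold change of 0.67; 5 of them stand in other lists too. FOS, an AP-1 subunit, went from 5.68 and 5.53 CPM to 139 and 151 CPM (25.9-fold, log2 fold change 4.69 ± 0.08, adjusted p = 4.43e-23), with heated controls between at 65.8 and 68.2 CPM. FOSB, its relative, went from 0.378 and 0.385 CPM through 4.85 and 5.81 CPM in heated controls to 12.7 and 13.6 CPM (net log2 fold change 5.07 ± 0.25). EGR2, a zinc finger transcription factor, went from 1.83 and 1.80 CPM to 20.96 and 17.1 CPM (log2 fold change 3.39 ± 0.18), with 6.46 and 7.74 CPM in the heated controls. In these 3 genes the 3 groups were separate and rose in the same order, unheated, heated control, heated knockdown. Others of the list went down: IER3, a stress-induced survival gene, from 84.6 and 82.6 CPM to 23.1 and 23.03 CPM (log2 fold change -1.86 ± 0.07), ZFP36L2, an RNA-decay factor, by 1.31 and KLF6, a transcription factor, by 1.14 on the log2 scale. IER3 was already at 23.1 and 23.2 CPM in heated controls. Summed over the list, the immediate early genes took 0.270% of the counts in each unheated library, 0.264% and 0.268% in heated controls, and 0.406% and 0.410% in the knockdown.

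Genes of the EGF receptor pathway and of MAP kinase feedback moved in both directions, against 31.1% higher and 31.1% lower for all tested genes. AREG, amphiregulin, a ligand of the EGF receptor, stood at 3.72 and 2.89 CPM in unheated cells, 3.999 and 4.01 CPM in heated controls and 44.95 and 45.9 CPM in the knockdown (net log2 fold change 3.77 ± 0.12, adjusted p = 4.86e-18). EREG, epiregulin, rose by 2.17 and NRG1, neuregulin 1, by 1.04, while NRG2 fell by 2.31 and the receptors ERBB3 and ERBB2 fell by 0.70 and 0.42 on the log2 scale. Of 12 EGF family ligands and receptors, 5 were higher and 4 lower, and only 3 were higher without unheated library 1 or with DESeq2. A further list held ERK feedback genes together with phosphatases that are not specific to ERK. Of its 17 tested genes, 8 were higher and 6 lower, with a median log2 fold change of 0.02. DUSP4, DUSP6 and SPRY1 of that list were too low to test. The phosphatase genes DUSP1, DUSP8 and DUSP16 rose by 1.71, 1.68 and 1.34, and PHLDA1, DUSP7 and SPRED3 fell by 1.48, 1.06 and 0.34. DUSP8 stood at 11.7 and 12.5 CPM unheated, 16.8 and 19.997 CPM in heated controls and 36.9 and 40.9 CPM in the knockdown, in 3 separate groups.

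The integrated stress response, in which phosphorylation of the translation factor eIF2 favours the factor ATF4 and its target genes, was measured through 30 genes. Of these 23 were higher, 4 lower and 3 did not pass, with a median log2 fold change of 0.45. PPP1R15A, also called GADD34, which directs the removal of that phosphate, went from 41.2 and 44.4 CPM to 299 and 313 CPM (7.14-fold, log2 fold change 2.84 ± 0.05, adjusted p = 2.02e-22), with 111 and 116 CPM in heated controls. NUPR1, a small stress-induced nuclear protein, went from 7.51 and 7.07 CPM to 27.7 and 29.8 CPM (log2 fold change 1.98 ± 0.11). In both, knockdown libraries were above heated controls and these above unheated cells. STC2, a secreted glycoprotein, rose by 2.14 but from 0.315 and 0.193 CPM, a few reads. DDIT4, an inhibitor of mTORC1 signalling, went the other way, from 80.1 and 79.2 CPM to 51.8 and 57.4 CPM (log2 fold change -0.54 ± 0.06), although heated controls had it at 157 and 143 CPM, above both groups compared. PPP1R15B, the constitutive counterpart of PPP1R15A, and EIF2AK1, the heme-regulated eIF2 kinase, fell by 0.44 and 0.41. Over the list, heat in control cells gave 24 higher and 2 lower, with a median log2 fold change of 0.45. Against heated controls, 12 were higher and 11 lower in the knockdown (median 0.07), so the second rise of PPP1R15A and NUPR1 was not shared by the list.

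Genes of folding in the endoplasmic reticulum were higher in 19 and lower in 6 of 34, with a median log2 fold change of 0.28. With library size alone as the scaling, 10 of them were lower. CRELD2, DNAJB11 and SDF2L1, all of them folding factors of that compartment, rose by 0.90, 0.78 and 0.66 on the log2 scale. CALR, calreticulin, the abundant lectin chaperone of the same compartment, stood out in the opposite direction. It was at 1758 and 1790.0 CPM in unheated cells, 1809 and 1803 CPM in heated controls and 386 and 379 CPM in the knockdown, a net fall of 4.64-fold (log2 fold change -2.21 ± 0.05, adjusted p = 5.18e-22). Unheated and heated controls differed little and both were far above the knockdown. DNAJC10 and EDEM1, which act in the disposal of misfolded proteins, fell by 1.21 and 0.93.

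Interferon-stimulated genes were lower as a group. Of 38 tested, 29 were lower, 3 higher and 6 did not pass, and the median log2 fold change was -1.57. IFIT3, which takes part in antiviral signalling, stood at 31.6 and 31.9 CPM in unheated cells and 1.76 and 1.11 CPM in the knockdown (22.02-fold lower, log2 fold change -4.46 ± 0.16, adjusted p = 3.16e-17), with 10.8 and 10.5 CPM in heated controls. IFI44 went from 19.6 and 18.9 CPM through 9.08 and 9.10 CPM to 0.352 and 1.04 CPM (net log2 fold change -4.76 ± 0.22), and IFIT2, which restricts viral RNA translation, from 10.1 and 9.25 CPM through 1.77 and 2.44 CPM to 0.422 and 0.209 CPM (net log2 fold change -4.90 ± 0.30). In each the 3 groups were separate, with the knockdown lowest. IFIT1, which binds foreign 5′ ends of RNA, fell from 12.9 and 12.1 CPM to 0.422 and 1.88 CPM (log2 fold change -3.42 ± 0.28). The IFIT1 value was -2.73 without knockdown library 1 and -4.86 without knockdown library 2, and that of IFI44 -5.74 without knockdown library 2. XAF1, an apoptosis factor, had 40 reads over the unheated libraries and 0 over the knockdown libraries, which makes it at least 12.1-fold lower with a floor of 3 counts over the group. Over the list, summed levels were 974 and 955 CPM in the unheated libraries, 802 and 794 CPM in heated controls, and 482 and 470 CPM once YTHDC1 was knocked down as well. The higher members were STAT2, a transcription factor of the response (log2 fold change 0.34), and the low-count genes IFI35 (1.96) and IFI27 (0.85). The calls of IFI35 and IFI27 were lost without unheated library 2 or knockdown library 1, and that of IFI27 also without the other library of either group, with adjusted p up to 0.181 for IFI35 and 0.27 for IFI27 over the alternatives, leaving STAT2 alone; without knockdown library 1 the value of IFI35 was 1.31.

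The promoters of IFIT3 (chr10:89327747-89327996), IFIT1 (chr10:89392373-89392622) and IFI44 (chr1:78649539-78649788), all on the plus strand of GRCh38.p14 from RefSeq, are shown because they are the members of the interferon-stimulated list among the 15 largest falls. Each is the 250 bases before the first listed start, 5′ to 3′. Capitals mark TTTCNNTTTC or its reverse complement GAAANNGAAA, the core of the interferon-stimulated response element.
IFIT3: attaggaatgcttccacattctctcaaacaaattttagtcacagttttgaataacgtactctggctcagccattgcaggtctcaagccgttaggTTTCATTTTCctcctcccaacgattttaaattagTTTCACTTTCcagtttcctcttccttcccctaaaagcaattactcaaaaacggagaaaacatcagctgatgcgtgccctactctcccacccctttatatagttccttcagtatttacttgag
IFIT1: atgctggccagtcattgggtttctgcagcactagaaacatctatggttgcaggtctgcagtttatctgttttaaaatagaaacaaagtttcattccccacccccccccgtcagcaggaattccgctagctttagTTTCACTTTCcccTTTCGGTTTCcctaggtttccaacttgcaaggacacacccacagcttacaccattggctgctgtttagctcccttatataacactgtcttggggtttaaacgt
IFI44: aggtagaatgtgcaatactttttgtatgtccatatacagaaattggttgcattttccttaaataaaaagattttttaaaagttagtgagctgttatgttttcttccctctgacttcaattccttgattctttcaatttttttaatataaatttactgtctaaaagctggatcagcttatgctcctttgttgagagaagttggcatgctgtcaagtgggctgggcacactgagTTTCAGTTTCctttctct
IFIT3 held 2 marked stretches, from 156 to 113 bases before the start, IFIT1 held 2, from 116 to 94 bases before it, and IFI44 held 1, from 18 to 9 bases before it. Of 31 tested interferon-stimulated genes with a promoter in the table, 18 held this motif, against 3.07% of all 27305 promoters. The motif stood in 3 of 10 promoters among the 15 largest falls and in 0 of 13 among the 15 largest rises. Among promoters of tested genes it stood in 2.29%, among those of genes at least 2-fold lower in 3.07% and among those of genes at least 2-fold higher in 1.83%.

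Targets of NF-kB, the transcription factor of inflammatory signalling, were lower in 25 of 33 cases and higher in 5, with a median log2 fold change of -0.85. CXCL8, interleukin 8, stood at 12.4 and 13.8 CPM in unheated cells, 18.8 and 18.3 CPM in heated controls and 1.41 and 1.60 CPM in the knockdown (net log2 fold change -3.12 ± 0.18, adjusted p = 3.2e-13). TRAF1, a signalling adaptor induced by NF-kB, went from 44.2 and 47.3 CPM through 27.2 and 26.7 CPM to 5.63 and 4.87 CPM (net log2 fold change -3.12 ± 0.11). For CXCL8 the heated controls were above both groups compared, and for TRAF1 they were between them. CSF2, the growth factor GM-CSF, had 293 reads over the unheated libraries and 1 over the knockdown libraries, a ratio of 267 after scaling with a counting interval from 47.5 to 10564 (exact, 95%). VCAM1, an adhesion molecule, had 26 reads and 0 reads, at least 7.88-fold lower. CSF2 was already lower in heated controls, at 5.17 and 5.45 TPM against 46.8 and 39.7 TPM unheated. PTGS2, the inducible cyclooxygenase, was the largest exception, going from 0.757 and 0.835 CPM to 7.88 and 9.32 CPM (log2 fold change 3.42 ± 0.24, adjusted p = 8.57e-12), and CSF1 and REL rose by 0.51 and 0.50. The heated controls of PTGS2, at 3.37 and 3.78 TPM, lay between 0.501 and 0.561 TPM unheated and 5.18 and 6.01 TPM in the knockdown. The list as a whole took 0.177% and 0.178% of the counts in unheated cells, 0.169% and 0.170% in heated controls and 0.105% and 0.104% in the knockdown.

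**Figure D3:**
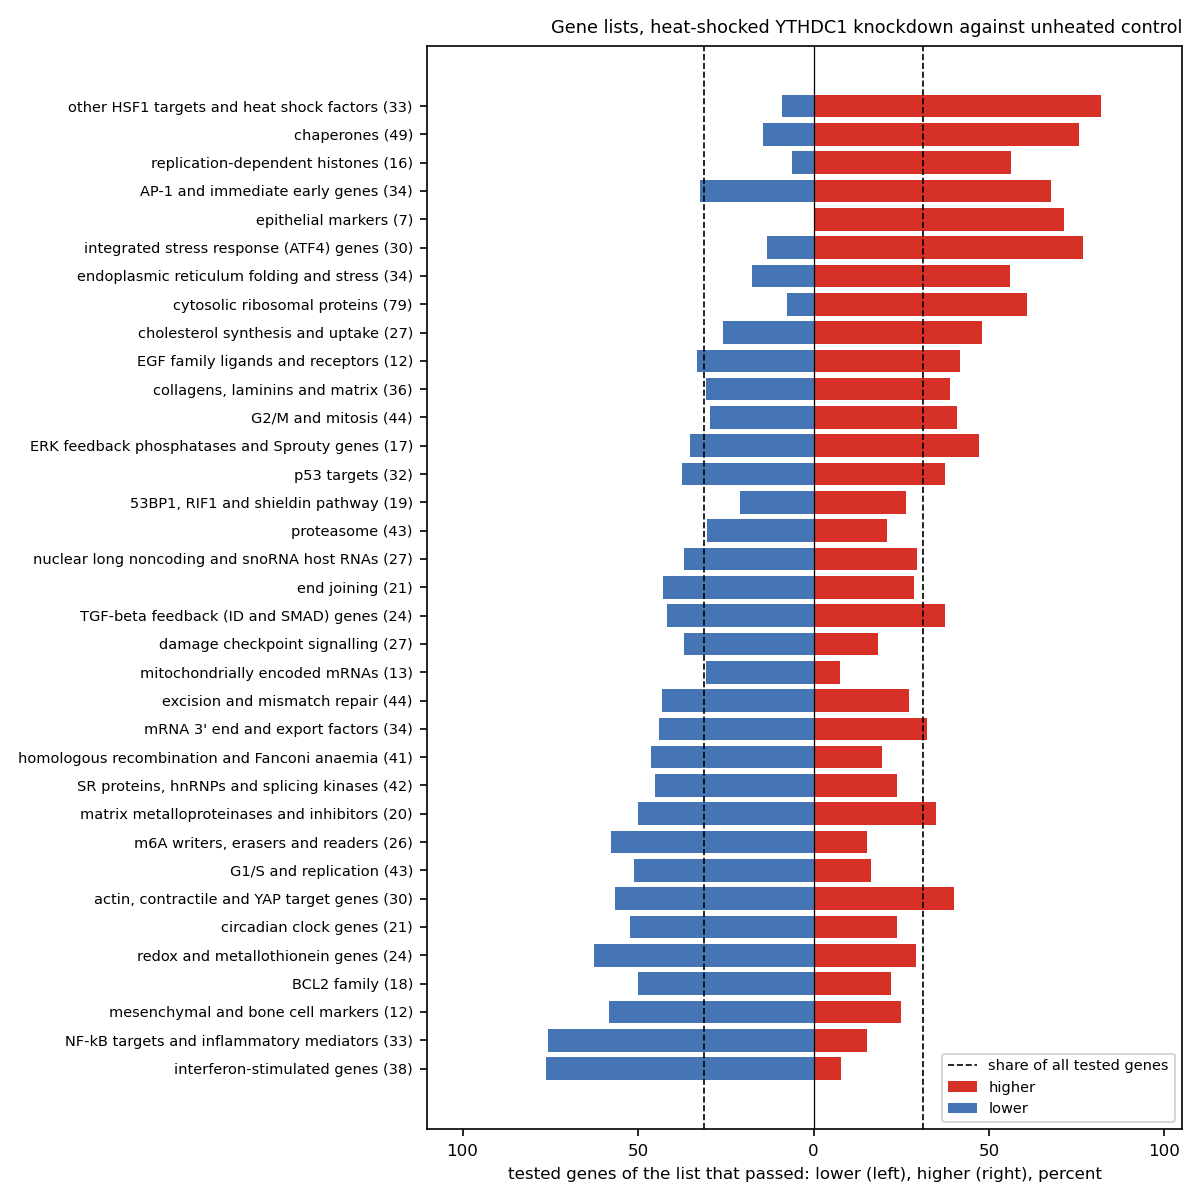
Share of each gene list that passed in the net comparison, in percent of its tested genes (number in brackets), lower to the left and higher to the right. Dashed lines mark the 31.1% of all tested genes that were higher and the 31.1% that were lower; 37 of 49 chaperones were higher and 29 of 38 interferon-stimulated genes lower.

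Genes of end joining, the pathway the design names, showed changes in both directions that were mostly small. Of 21 tested, 6 were higher, 9 lower and 6 did not pass, with a median log2 fold change of -0.04, against 31.1% higher and 31.1% lower for all tested genes. XRCC5, which encodes the Ku80 subunit that binds broken ends, went from 638 and 631 CPM to 557 and 549.5 CPM (log2 fold change -0.20 ± 0.04, adjusted p = 0.000301). Its partner XRCC6, encoding Ku70, stood at 814 and 816 CPM and 822 and 803 CPM, with a log2 fold change of -0.00 and a 95% interval from -0.10 to 0.09. XRCC5 was thus separate between groups and XRCC6 overlapped. PRKDC, the catalytic subunit of DNA-PK, stood at 842 and 835 CPM and 902 and 898 CPM (log2 fold change 0.10 ± 0.04, adjusted p = 0.0369). LIG4, the ligase of the pathway, stood at 38.5 and 39.1 CPM and 41.4 and 38.96 CPM (log2 fold change 0.05, interval from -0.11 to 0.20), and its scaffold XRCC4 at 8.01 and 8.61 CPM and 9.57 and 7.51 CPM (log2 fold change 0.04, interval from -0.26 to 0.34). Neither passed, and both overlapped between groups.

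Some other genes of the list had larger changes, and of these other genes only ones that passed are named. POLM, a gap-filling polymerase, went from 16.8 and 14.97 CPM to 7.67 and 11.8 CPM (log2 fold change -0.71 ± 0.15, adjusted p = 0.000217). SETMAR, a methyltransferase and transposase fusion, went from 20.4 and 18.95 CPM to 11.96 and 11.9 CPM (log2 fold change -0.72 ± 0.11). Both were lower in both knockdown libraries than in both unheated ones. CYREN, a regulator of Ku, fell by 0.53, the nuclease gene DCLRE1C (Artemis) by 0.21, and the alternative-pathway genes LIG3, PARP1 and XRCC1 by 0.37, 0.27 and 0.16 on the log2 scale. Higher were NHEJ1, which encodes the factor XLF (0.53), POLQ, the polymerase of microhomology-mediated joining (0.35), APTX (0.32), POLL (0.20), WRN (0.15) and PRKDC. Several of these calls rested on the settings. PRKDC and WRN lost theirs in 8 and POLL in 9 of 13 alternatives (adjusted p up to 0.327, 0.252 and 0.405), PRKDC and WRN on leaving out any single library but knockdown library 2, and POLL any but unheated library 1. The call was lost for XRCC1 without either unheated library or knockdown library 2, for DCLRE1C without unheated or knockdown library 2, and for NHEJ1 without knockdown library 2 (log2 fold change 0.35, adjusted p = 0.063). The number of higher genes was 3 in 6 of the alternatives.

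The 53BP1 pathway protects broken ends from resection and so favours end joining. TP53BP1, its central scaffold, stood at 128 and 136 CPM in unheated cells and 62.1 and 59.4 CPM in the knockdown (2.17-fold lower, log2 fold change -1.12 ± 0.05, adjusted p = 1.19e-14). Heated controls, at 128 and 128 CPM, were at the unheated level, and the knockdown libraries were the lowest. H2AX, the histone whose phosphorylation marks breaks, went from 174 and 165 CPM through 117 and 123 CPM to 91.7 and 102 CPM (net log2 fold change -0.80 ± 0.05). CTC1, which recruits fill-in synthesis, and RIF1, the effector bound by phosphorylated 53BP1, fell by 0.83 and 0.24 on the log2 scale. MAD2L2, a subunit of shieldin, rose from 78.7 and 74.1 CPM to 96.7 and 103 CPM (log2 fold change 0.39 ± 0.06), RNF168, the ubiquitin ligase upstream of 53BP1, by 0.30, DYNLL1 by 0.29, KDM4A by 0.27 and USP28 by 0.20. The USP28 call was lost without unheated library 1 or knockdown library 1 (adjusted p up to 0.103). In all, 5 of 19 were higher, 4 lower and 10 did not pass.

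**Figure D4:**
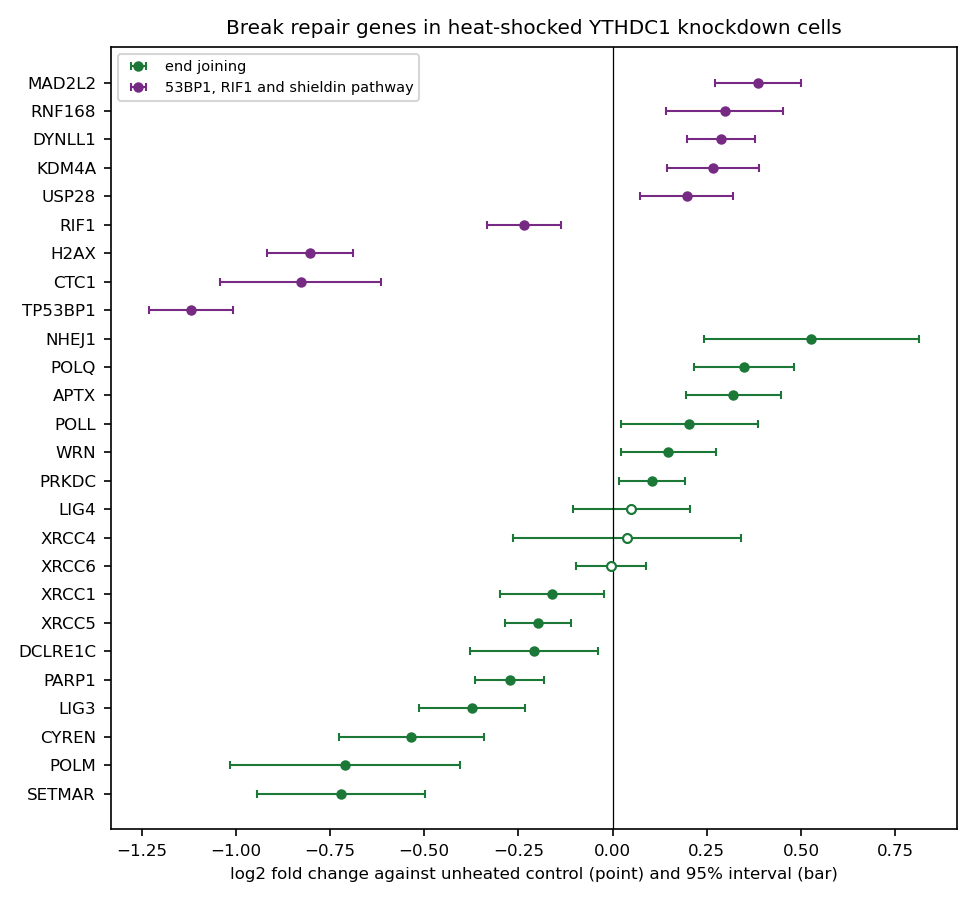
Net log2 fold change of break repair genes (points) with 95% intervals (bars), heat-shocked YTHDC1 knockdown against unheated control; open points did not pass. End joining genes are green and 53BP1 pathway genes purple; TP53BP1 lies lowest at -1.12 and XRCC6 at -0.00.

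Homologous recombination and Fanconi anaemia genes, which repair breaks and crosslinks from a template, were lower in 19 and higher in 8 of 41, with a median of -0.12. BRCA2, a mediator of strand exchange, went against that direction, from 38.7 and 40.7 CPM to 79.6 and 83.6 CPM (log2 fold change 1.04 ± 0.06, adjusted p = 5.85e-13), with heated controls at 40.3 and 41.6 CPM. The heated controls lay at the unheated level and the knockdown above both. SWI5 and FANCB rose by 1.06 and 0.79, and FANCF and GEN1 fell by 1.10 and 0.98. The higher count was 5 without unheated library 1, and DESeq2 called 5 higher and 12 lower. Excision and mismatch repair genes were lower in 19 and higher in 12 of 44, PCNA leading the falls, with CETN2 at -1.11, while the glycosylases NEIL2 and NEIL1 and the damage sensor XPA were at 0.72, 0.71 and 0.57. The NEIL1 call was lost without unheated library 1 or knockdown library 2 (adjusted p up to 0.185), and DESeq2 called 7 higher. Checkpoint genes were lower in 10 and higher in 5 of 27, or 8 without knockdown library 1. CLSPN and TIMELESS, which signal from stalled forks, fell 2.25-fold and 1.95-fold, and HUS1, WEE1 and RFC2 rose by 0.54, 0.43 and 0.41.

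Targets of p53 divided evenly, with 12 higher and 12 lower of 32, although 3 were higher and 23 lower in heated controls against unheated cells. BTG2, an antiproliferative gene, went from 59.7 and 58.7 CPM to 11.4 and 11.5 CPM (log2 fold change -2.37 ± 0.09) with heated controls at 13.8 and 15.1 CPM, and SESN1 and AEN fell by 1.49 and 1.06. FDXR, a mitochondrial reductase, stood at 124 and 118 CPM unheated, 89.2 and 98.6 CPM in heated controls and 229 and 231 CPM in the knockdown (net log2 fold change 0.93 ± 0.05), and SUSD6 and POLH rose by 1.09 and 0.83. For FDXR the heated controls were lowest and the knockdown highest. In the BCL2 family, which sets the threshold for apoptosis, 4 of 18 were higher and 9 lower. MCL1, a short-lived protector against apoptosis, rose from 275 and 272 CPM through 541 and 536 CPM to 681 and 629.9 CPM (net log2 fold change 1.26 ± 0.05, adjusted p = 5.41e-17). BCL2 rose by 0.93 and HRK, a BH3-only promoter of apoptosis, by 1.73, while the BH3-only genes BBC3 (PUMA) and BMF fell by 1.05 and 1.82. BBC3 was at 25.9 and 24.99 CPM unheated, 5.61 and 6.52 CPM in heated controls and 11.7 and 12.9 CPM in the knockdown, which lay between the others. BCL2A1 had 27 reads in unheated and 3 in knockdown libraries, a ratio of 8.19 with an interval from 2.52 to 42.2.

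Genes of G1/S and DNA replication were lower in 22 and higher in 7 of 43, with a median of -0.18. CCND1, cyclin D1, went from 703 and 679.7 CPM through 452 and 458 CPM to 370.2 and 337 CPM (net log2 fold change -0.97 ± 0.05, adjusted p = 1.42e-14), and GMNN, the licensing inhibitor geminin, fell by 1.26. RRM2, a subunit of the enzyme that makes deoxynucleotides, went from 230.4 and 229 CPM down to 160.0 and 165 CPM in heated controls and up to 321 and 358 CPM in the knockdown (net log2 fold change 0.56 ± 0.05). E2F7 and CDC7 rose by 0.57 and 0.48. Mitotic genes were higher in 18 and lower in 13 of 44. KIF14, KIF4A and CCNB2 rose by 0.77, 0.66 and 0.64, whereas AURKA, the Aurora A kinase, fell from 117 and 105.2 CPM through 72.6 and 65.5 CPM to 23.4 and 24.4 CPM (net log2 fold change -2.21 ± 0.07), CDCA8, of the Aurora B complex, by 2.17 and BUB1B by 0.72. AURKA and CDCA8 were therefore lower in the same libraries in which other mitotic genes were higher. Heat in control cells gave 2 mitotic genes higher and 33 lower, with a median log2 fold change of -0.37. Against heated controls, 28 were higher and 6 lower in the knockdown (median 0.35). These comparisons share the heated controls. For all tested genes the net shares were 31.1% higher and 31.1% lower.

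Replication-dependent histone genes, whose messages normally end in a stem-loop without a poly(A) tail, passed the filter on low counts in 16 of 58 cases. Of the 16, 9 were higher and 1 lower, and a member that is high in only 1 group can pass the filter through that group, so the count describes these 16 and not the family. H2BC12 went from 130.4 and 134 CPM to 395 and 477 CPM (log2 fold change 1.72 ± 0.10, adjusted p = 1.3e-05), with 122 and 139 CPM in heated controls. H2BC11 rose by 1.64, H1-4, at a few reads, by 1.90 (its call was lost without unheated library 2 or knockdown library 2, adjusted p up to 0.101, and its value was 2.72 without unheated library 1), and H2AC6 fell by 0.75. Between 1 and 3 of the 16 were lower over the alternatives, with the highest number without unheated library 2.

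Genes that handle RNA moved in both directions, against 31.1% higher and 31.1% lower for all tested genes. Of 42 SR protein, hnRNP and splicing kinase genes, 10 were higher and 19 lower (median -0.12), and of 34 genes of 3′ end formation and export, 11 were higher and 15 lower. CLK1, a kinase of SR proteins, went from 74.9 and 79.1 CPM to 252 and 246 CPM (log2 fold change 1.69 ± 0.05, adjusted p = 3.45e-18), at the level of heated controls (245 and 222 CPM), and CLK4 and SRSF4 rose by 0.93 and 0.57. SRSF2 and HNRNPDL fell by 0.54 and 0.65, and the low-count SRSF12 by 1.13, a call lost on leaving out any 1 of the 4 libraries compared (adjusted p up to 0.218 over the alternatives). Among the end-processing genes, CPSF2, CSTF1 and WDR33 fell by 0.90, 0.89 and 0.87, and the export genes GLE1, THOC1 and THOC6 rose by 0.60, 0.57 and 0.49. The writers, erasers and readers of m6A were lower in 15 and higher in 4 of 26, with a median of -0.17, the knocked-down gene among the lower. YTHDF2, a cytoplasmic reader that promotes decay, went from 119 and 119 CPM to 67.4 and 67.2 CPM (log2 fold change -0.82 ± 0.05), much as in heated controls (68.8 and 72.8 CPM), and FMR1 fell by 0.67. The writer-complex subunit RBM15 went from 47.3 and 48.9 CPM through 55.4 and 65.01 CPM to 85.6 and 89.4 CPM (net log2 fold change 0.86 ± 0.07), and METTL16 and YTHDC2 rose by 0.75 and 0.59. Among nuclear noncoding and snoRNA host RNAs, 8 of 27 were higher and 10 lower. MALAT1, a speckle-associated RNA, went from 451 and 464 CPM to 169 and 148 CPM (log2 fold change -1.53 ± 0.06), and DANCR, GAS5 and KCNQ1OT1 rose by 0.71, 0.66 and 0.71.

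Most ribosomal protein genes were higher by small amounts. Of 79, 48 were higher and 6 lower, with a median log2 fold change of 0.15; the numbers were 31 and 13 with library size alone as the scaling, and 30 were higher without unheated library 2. RPL13A went from 2903 and 2938 CPM to 4354 and 4569.5 CPM (log2 fold change 0.61 ± 0.04), and RPL22 rose by 0.49. RPL8 and RPL31 departed from the rest. RPL8 stood at 1579.7 and 1509 CPM unheated, 1683 and 1757 CPM in heated controls and 442 and 469 CPM in the knockdown (net log2 fold change -1.76 ± 0.05, adjusted p = 1.54e-19), and RPL31 at 879.9 and 899.9, 1173 and 1016 and 281 and 282 CPM (net log2 fold change -1.66 ± 0.05). In both, the heated controls were the highest and the knockdown the lowest. Ribosomal protein genes have many processed pseudogenes, so reads could be divided among copies. Proteasome genes were higher in 9 and lower in 13 of 43, with PSMD14, PSMD8 and PSMD4 at 0.49, 0.39 and 0.37. The immunoproteasome subunit genes PSMB10 and PSMB9, which interferon induces, went from 7.32 and 7.39 CPM to 0.844 and 0.696 CPM (log2 fold change -3.24 ± 0.24) and from 26.1 and 27.6 CPM to 6.82 and 6.68 CPM (log2 fold change -1.99 ± 0.11), and the activator gene PSME3 fell by 1.21. Of 13 mitochondrially encoded messages 1 was higher and 4 lower, or 8 lower without knockdown library 2 and 2 without unheated library 1. MT-ND5 rose by 0.39 on the log2 scale, MT-ND6 fell 2.26-fold and MT-ND2 1.26-fold, and the call of MT-CO2 (-0.19) was lost without unheated library 1 or knockdown library 1 (adjusted p up to 0.17).

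Metabolic, redox and clock genes were mixed, against 31.1% higher and 31.1% lower for all tested genes. Cholesterol genes were higher in 13 and lower in 7 of 27, led by HSD17B7 (1.64), PMVK (1.08) and INSIG1 (1.02). SQLE, the squalene epoxidase, went from 273 and 270.2 CPM through 206 and 201 CPM to 104 and 93.7 CPM (net log2 fold change -1.46 ± 0.05), and TM7SF2 and SREBF1 fell by 2.11 and 0.64. Redox and metallothionein genes were lower in 15 and higher in 7 of 24, with a median of -0.29. TXNIP, the inhibitor of thioredoxin, stood at 27.2 and 26.1 CPM unheated, 89.1 and 91.5 CPM in heated controls and 5.56 and 8.28 CPM in the knockdown (net log2 fold change -1.95 ± 0.12, adjusted p = 8.89e-13), so the heated controls were above and the knockdown below the unheated level. MT2A and NQO1 fell by 1.20 and 1.19, and OSGIN1, MTF1, the metal-sensing transcription factor, and MAFG rose by 1.52, 1.22 and 0.52. Clock genes were lower in 11 and higher in 5 of 21. BMAL1, which drives the clock, rose from 29.1 and 24.6 CPM to 57.8 and 55.2 CPM (log2 fold change 1.07 ± 0.08), and NR1D1, a repressor of BMAL1, fell from 17.5 and 17.9 CPM to 5.28 and 6.47 CPM (log2 fold change -1.59 ± 0.13). NFIL3 and PER2 rose by 0.82 and 0.41, and BHLHE41 and BMAL2 fell by 1.88 and 1.77.

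Genes of the cell surface, matrix and cytoskeleton changed in both directions within each list, against 31.1% higher and 31.1% lower for all tested genes. Of 20 matrix metalloproteinase and inhibitor genes, 7 were higher and 10 lower. MMP24, a membrane-bound enzyme, stood at 13.5 and 12.3 CPM unheated, 6.31 and 5.88 CPM in heated controls and 43.9 and 39.9 CPM in the knockdown (net log2 fold change 1.70 ± 0.09), MMP19 rose by 1.65, MMP17 fell by 2.17 and the low-count MMP1 by 2.39. MMP3 rose by 1.80, a call lost without unheated library 1 (log2 fold change 1.63, adjusted p = 0.0535). Of 36 collagen, laminin and other matrix genes, 14 were higher and 11 lower. LAMA3, a laminin chain of epithelial basement membranes, went from 5.30 and 4.56 CPM to 44.2 and 28.2 CPM (log2 fold change 2.87 ± 0.26), and COL8A1 rose by 2.17, while COL18A1 and LAMB1 fell by 1.14 and 0.76. THBS2 fell by 1.43, and its call was lost without unheated library 1 or knockdown library 2 (adjusted p up to 0.173). Of 30 actin, contractile and YAP target genes, 12 were higher and 17 lower. CNN1, calponin of smooth muscle, went from 17.1 and 15.8 CPM to 86.6 and 86.97 CPM (log2 fold change 2.40 ± 0.08, adjusted p = 2.69e-18) with 18.5 and 16.3 CPM in heated controls, and ACTA2 and ACTBL2 rose by 2.78 and 3.87. The abundant genes MYH9 and TPM1 fell by 0.95 and 0.94, and CAVIN2 by 1.55. In TGF-beta feedback, 9 of 24 were higher and 10 lower (6 lower without unheated library 2, 5 with DESeq2), with BAMBI, ID4 and ID1 at 1.71, 1.53 and 1.13 and NOG, TGIF1 and the receptor gene TGFBR2 at -1.29, -1.12 and -0.94.

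Markers that tell mesenchymal from epithelial cells moved as follows. Of 12 mesenchymal and bone markers tested, 3 were higher and 7 lower (median -0.47), and of 7 epithelial markers, 5 were higher and 0 lower (median 0.63), or 1 lower with library size alone; 6 of the 13 epithelial markers listed, GRHL2 and ESRP1 among them, were too low to test. EPCAM, an epithelial adhesion molecule, had 5.61 and 5.20 CPM unheated, 6.23 and 4.66 CPM in heated controls and 19.98 and 20.5 CPM in the knockdown (net log2 fold change 1.90 ± 0.14, adjusted p = 1.52e-11). CDH1, E-cadherin, and KRT14, a basal keratin, rose by 1.49 and 1.45 from single-digit CPM. CDH2, N-cadherin, rose as well, from 149 and 141 CPM to 309 and 283 CPM (log2 fold change 1.03 ± 0.05), and COL1A1 by 0.49, whereas SNAI2, S100A4 and SPP1 fell by 1.73, 1.46 and 1.78. KRT5, another epithelial marker, overlapped between groups, at 1.39 and 1.80 CPM unheated and 1.13 and 1.81 CPM in the knockdown. EPCAM, CDH1 and KRT14 held little of the level summed over the epithelial list, and most of it came from members not named here. The summed level of the epithelial list was 784 and 732 CPM in unheated libraries, 865 and 891 CPM in heated controls and 1011 and 973 CPM in the knockdown. That of the blood cell list was 20.1 and 21.5, 22.6 and 28.7, and 6.96 and 8.21 CPM in the same order, with 2 of 3 tested members lower, LCP1 by 1.89 and ITGAM by 1.09. Whether these markers have a part in the other results was not tested.

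Some genes that heat changed at least 2-fold in control cells were back near the unheated level in the heated knockdown. They were chosen for that pattern from the same libraries, so their values are a description without a test. Over all tested genes, heat in control cells called 5.82% higher and 3.5% lower by at least 2-fold, and the knockdown among heated cells 6.12% higher and 6.59% lower. Among those that heat raised, MAP1A, a microtubule-associated protein, stood at 172 and 173 CPM unheated, 352 and 356 CPM in heated controls and 170.5 and 178 CPM in the knockdown. IL7R, a cytokine receptor subunit, stood at 126 and 133, 320.1 and 311 and 115 and 110.2 CPM, and DPYSL2, a regulator of microtubules in neurites, at 82.5 and 76.3, 214 and 228 and 88.01 and 86.6 CPM. The net log2 fold changes of these 3 were 0.01, -0.20 and 0.14, and the knockdown libraries lay within or close to the unheated range. IL7R and DPYSL2 nonetheless passed in the net comparison (adjusted p = 0.00138 and 0.0387), and DPYSL2 lost its call in 6 of 13 alternatives, among them without unheated library 2, heated control library 2 or knockdown library 1 (adjusted p up to 0.438). CMYA5 had the same shape at a low level. ID3, a repressor of helix-loop-helix factors, had 17.9 and 37.4 CPM in the 2 knockdown libraries, which differ from each other, against 34.5 and 34.2 CPM unheated, and without knockdown library 2 its net log2 fold change was -0.94. Among those that heat lowered, MAPK6, an atypical MAP kinase, stood at 88.4 and 84.8, 38.4 and 37.2 and 90.8 and 89.2 CPM. NAA80, CPT2 and ATG2A followed the same course, with net log2 fold changes of 0.01, -0.05 and -0.04, and ATG2A was at -0.24 without knockdown library 2.

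Other genes moved at least 2-fold in the same direction at both steps. Of those that averaged 5 CPM or more over the 4 libraries compared, the 6 largest rises by net change were FOSB, FOS, XIRP1, ENSG00000280367, which has no symbol, SCN3B and SNORD14E, and the 6 largest falls IFI44, IFIT3, APOL3, CCDC71, IFIT1 and PCNA. IFIT1 stood at 2.23 and 2.51 CPM in heated controls and 0.422 and 1.88 CPM in the knockdown libraries, so its second step was small in knockdown library 2. APOL3, an interferon-inducible apolipoprotein L, stood at 13.7 and 17.1 CPM unheated, 7.46 and 6.38 CPM in heated controls and 0.422 and 1.11 CPM in the knockdown. CCDC71 stood at 13.9 and 13.3, 3.31 and 4.44 and 0.774 and 1.11 CPM. XIRP1 stood at 1.39 and 0.964, 4.54 and 4.52 and 27.4 and 27.97 CPM. These too were picked by size from the libraries that show them, and in each the order of the groups is the one the choice required.

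**Figure D5:**
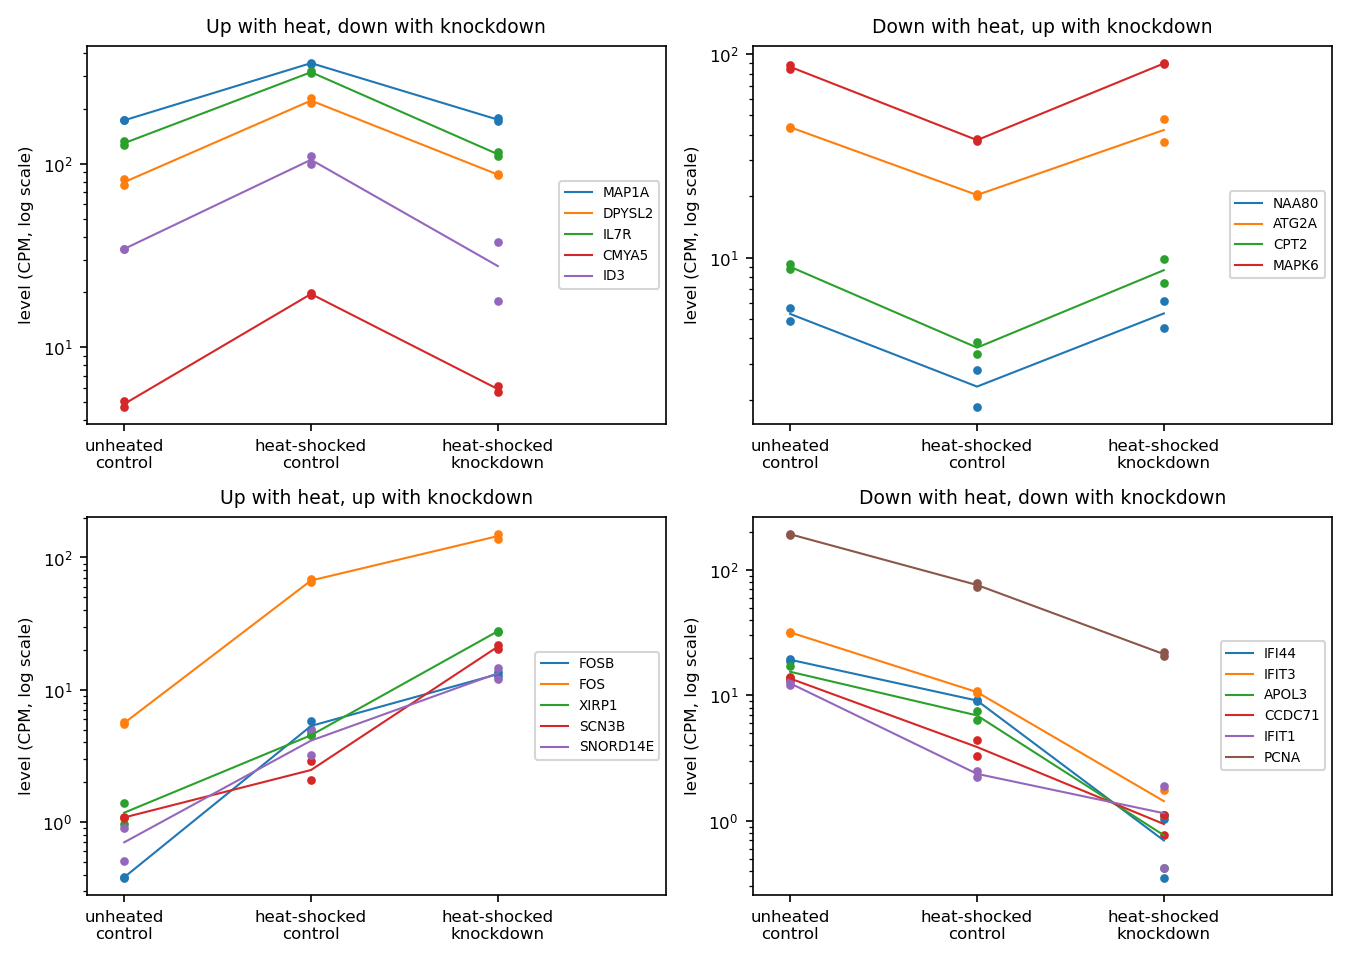
Genes by the direction of both steps, as the level in each library (points, CPM, log axis) and the group mean (lines) for unheated control, heat-shocked control and heat-shocked knockdown. Upper panels hold genes that returned near the unheated level, such as MAP1A at 172 and 173, 352 and 356 and 170.5 and 178 CPM; lower panels hold genes that moved the same way at both steps, such as PCNA at 190.4 and 194, 78.7 and 72.9 and 22.02 and 20.6 CPM.

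Gene length and level were compared across calls. The median length of genes at least 2-fold higher was 3828 bases, of those at least 2-fold lower 4153 bases and of those not passing 4068 bases. Their median levels were 2.95, 3.71 and 5.31 CPM, in the same order. Protein-coding genes made up 63.8% of the genes at least 2-fold higher, 72.7% of those at least 2-fold lower and 66.7% of those not passing. Genes called at any fold were longer and more abundant than those not passing. Such genes collect more reads and pass a test on counts more easily, and the cause of the difference was not tested. All 5372 higher genes had medians of 5285 bases and 25.3 CPM, and all 5384 lower genes 5186.5 bases and 24.1 CPM. Of these, 82.5% and 86.8% were protein-coding. Of 11578 genes that averaged 5 CPM or more, 71.3% passed in one direction or the other.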

How the data were processed

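The deposited table holds raw read counts per gene, with gene lengths, per the file headers, for 63187 genes in 6 RNA-seq libraries. The submitters' processing notes name HISAT2 2.2.1, featureCounts 2.0.2, Trim Galore 0.6.7, FastQC 0.11.8, DESeq2 1.36.0, SAMtools 1.17, MACS2, R 4.4.0 and GRCh38, without their roles; the annotation release and strand setting are not stated in the sources. The 521 genes without a symbol, 0.0602% to 0.0698% of the counts, kept their identifiers and stayed in the fit.

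Counts were fitted in R 4.3.3 with edgeR 4.0.16 (filterByExpr with a minimum count of 10, TMM, robust quasi-likelihood F test, limma 3.58.1 loaded), with all 6 libraries in one model of 3 groups and 3 residual degrees of freedom, and Benjamini-Hochberg adjustment over 17290 genes at 0.05. CPM and TPM were computed from the counts. Standard errors are the log2 fold change divided by the root of F, and intervals are 95%. The biological coefficient of variation was 3.69%. Between the libraries of a group, chi-square per gene over 11574 genes was 1.64, 3.22 and 4.43 for unheated control, heat-shocked control and knockdown, above the 1 of sampling noise, so no library was counted as a duplicate. The fit was tested on simulated data. Libraries with the same number in different groups were checked for pairing: their deviations correlated at -0.03, -0.06 and 0.06, and nothing in the labels links them.

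The members and lists were chosen with earlier results of these data known. Named are YTHDC1, HSPA6 and HSF1; the 15 largest rises and falls of coding genes and 5 of other types, with a mean of at least 5 CPM; all end joining and 53BP1 genes that passed, with 5 core genes; up to 3 rises and 3 falls that passed in each other list; and up to 6 genes each that were offset or compounded by heat and knockdown, with at least 2-fold at each step. Some genes that this rule names are not reported here. Others are said to be chosen after their values were seen. Alternatives were DESeq2 1.42.0, other scalings, no filter, no robust estimation, the 2 groups alone, a replicate block and leaving out each library. Gene types came from RefSeq for 40421 genes. Figures were drawn with matplotlib 3.10.9, and tables with pandas 2.3.3 and scipy 1.17.1. Floors and count intervals cover counting error only.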

Additional observations from a re-analysis of the deposited data

How the results depend on the processing

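The numbers of genes called kept within 1.5 times in all 13 alternatives: from 3912 to 5477 higher and from 3898 to 5892 lower, and at least 2-fold from 1322 to 1932 higher and from 1240 to 1794 lower. The lowest were those of the DESeq2 Wald test for all calls. With library size alone as the scaling, 4808 genes were higher and 5892 lower, so 44.9% of the calls were higher against 49.9% with TMM scaling, and the median of all genes moved by -0.06. YTHDC1 ranged from -0.93 to -0.84 and HSPA6 from 8.25 to 8.36 on the log2 scale. With the replicate number as a block, 5337 genes were higher and 5347 lower, at least 2-fold 1629 and 1548, YTHDC1 was at -0.87 and HSPA6 at 8.31; the block changed no call of a named gene, and among the lists it moved only the higher mitochondrial messages, from 1 to 2, and the higher blood markers, from 0 to 1. Of 3352 values of 258 named genes over the alternatives, 3272 kept direction and call, 78 lost the call, 2 gained one and 0 reversed; 18 genes lost a call at least once, and the cause was not tested. Where a library was left out of a group, the lone sample left was assumed to vary like the other groups. With 2 libraries per group and 3 residual degrees of freedom, genes that did not pass are not shown to be equal. Genes near the floor of 3 counts, 0.194 to 0.226 CPM before TMM scaling, have folds that depend on a handful of reads.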

Other observations

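The following abundant genes were chosen after their values were seen; of them only LAMB3 belongs to a list above, that of matrix genes. Of 572 genes with a mean of at least 300 CPM in either group compared, 46 were at least 2-fold higher in the heat-shocked knockdown and 16 at least 2-fold lower. KPNB1, importin beta, which carries proteins into the nucleus, was at 698 and 687 CPM in the unheated libraries, 661 and 622 CPM in heated controls and 121 and 123 CPM in the knockdown (net log2 fold change -2.51 ± 0.05). NPM1, nucleophosmin, a nucleolar chaperone, stood at 1446 and 1396, 1445 and 1427 and 414 and 435 CPM in the same order (-1.74 ± 0.05), and STMN1, stathmin, which destabilises microtubules, at 483 and 469, 454 and 468 and 104 and 118 CPM (-2.10 ± 0.05). In these 3 genes the heated controls lay close to the unheated libraries and the knockdown libraries far below both. HEG1, a receptor of endothelial junctions, fell at each step, from 333 and 308 through 174 and 179 to 37.8 and 47.2 CPM (-2.91 ± 0.07). SEPTIN11 and ITGAV (integrin alpha V) had net log2 fold changes of -1.32 and -1.19.

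Among the abundant rises, VGF, a secreted neuropeptide precursor, stood at 86.7 and 83.4 CPM unheated, 78.5 and 88.7 CPM in heated controls and 304 and 300.3 CPM in the knockdown (net log2 fold change 1.83 ± 0.05). ITGA6, integrin alpha 6, stood at 126 and 133, 115 and 117 and 443 and 391 CPM (1.69 ± 0.05), and LAMB3, a chain of the laminin that it binds, at 304 and 299.6, 321 and 330.3 and 777 and 677 CPM (1.27 ± 0.05). In all 3 the heated controls were near the unheated level. LINC00839, a long noncoding RNA, went from 84.7 and 78.3 CPM through 285 and 277 CPM to 428 and 422 CPM (2.38 ± 0.05), with most of the rise already present in heated controls.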
